A study of Rattus norvegicus with 3 samples.

Results

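The genes described here are *C1r*, *C1s*, *C2*, *Masp1*, *C3*, *Cfd*, *Serping1*, *Cd55* and *Cfi*, 9 genes for proteases, the central component and regulators of complement. They were chosen from their measured signals on these same arrays, so their ratios between ages are a description and are not tested. On the array, 8 of the 9 genes had a probe set of their own, and together these genes had 11 of the 31042 probe sets analysed, which name 14216 genes in all. *C2* was read only by 4 probe sets that the platform's table gives to *Cfb* and *C2* jointly, and these are described apart from the 11.

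Tendon stem/progenitor cells (TSPCs) are cells of the tendon that grow out as adherent colonies and can form several mesenchymal tissues in culture. Achilles tendons of rats 1, 7 and 56 days old gave the cultures (named TSPCs-1d, TSPCs-7d and TSPCs-56d, with signals given as at 1d, 7d or 56d), and gene profiles were compared between these stages of post-natal development with 1 array per age, so 3 arrays in all. No group carried a treatment, an induced mutation or a transgene. All groups shared low glucose DMEM with fetal bovine serum and penicillin-streptomycin, and were used at passage 2. The tissue of at least 2 animals was mixed for each age and the colonies were kept as polyclonal cultures, so an array reads a mixed population of pooled animals and not 1 animal or 1 clone. The study worked on Sprague-Dawley rats, and their sex is not given in the sources used here. Each array reports a signal, an intensity on a linear scale, for every probe set, which is a group of short probes for 1 transcript. A ratio is the signal at the later age over the signal at the earlier age, and "higher" and "lower" counts take the cutoff of 2 used in the study's methods. As there was 1 array per age, there is no replicate error, no p-value was computed, and every ratio compares these arrays and these cultures. In RNA from a whole culture, more cells of a type and more RNA per cell cannot be told apart.

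Complement is a chain of plasma proteins in which several serine proteases are cut and switched on in turn. The classical pathway starts with C1q, whose bound proteases C1r and C1s cut C4 and C2. The lectin pathway starts with sugar-binding proteins and the MASP proteases, and the alternative pathway runs through factor B and factor D. All pathways meet at C3, whose cleavage tags a surface and leads to the terminal pore. Host cells limit the chain with inhibitors and decay proteins. The liver makes most of the complement in plasma, and fibroblasts and other stromal cells are also known to make several of its components.

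Promoters are shown for the genes past the cutoff in TSPCs-56d vs. TSPCs-1d, since these share a direction and their upstream letters can be set side by side. RefSeq's table for rat build GRCr8 held the promoters of 6 of the 9 genes, namely *C1r*, *C3*, *Cd55*, *Cfd*, *Cfi* and *Masp1*. The 250 bases before the annotated start are printed for *C1r* (chr4:159098763-159099012, plus strand), *Masp1* (chr11:90839472-90839721, plus strand), *C3* (chr9:2201340-2201589, minus strand) and *Cd55* (chr13:44438102-44438351, minus strand), each 5′ to 3′ on the gene's strand, with matches to the GC box in capitals.
C1r: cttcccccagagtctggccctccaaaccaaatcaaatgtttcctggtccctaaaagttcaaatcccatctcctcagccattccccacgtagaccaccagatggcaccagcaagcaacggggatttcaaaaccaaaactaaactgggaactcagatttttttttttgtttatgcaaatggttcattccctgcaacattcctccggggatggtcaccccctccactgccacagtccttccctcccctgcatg
Masp1: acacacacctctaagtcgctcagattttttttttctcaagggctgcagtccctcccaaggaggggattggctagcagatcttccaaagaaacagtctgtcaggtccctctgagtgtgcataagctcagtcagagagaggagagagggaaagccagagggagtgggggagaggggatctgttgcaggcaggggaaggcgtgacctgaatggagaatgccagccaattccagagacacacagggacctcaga
C3: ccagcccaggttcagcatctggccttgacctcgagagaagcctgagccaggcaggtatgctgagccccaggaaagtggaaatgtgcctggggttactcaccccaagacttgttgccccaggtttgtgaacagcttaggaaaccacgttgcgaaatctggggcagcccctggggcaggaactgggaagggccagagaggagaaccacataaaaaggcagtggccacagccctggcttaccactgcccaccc
Cd55: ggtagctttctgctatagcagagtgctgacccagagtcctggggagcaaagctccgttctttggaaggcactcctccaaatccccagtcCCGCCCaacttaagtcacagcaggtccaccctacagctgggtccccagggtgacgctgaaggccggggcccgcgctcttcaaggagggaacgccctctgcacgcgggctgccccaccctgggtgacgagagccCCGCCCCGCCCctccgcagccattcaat
On both strands of these windows, 5 sets of letters were searched: the STAT site TTCNNNGAA, the interferon element GAAANNGAA, the kappa-B site GGANTTTCC, the GC box GGGCGG and the TATA box TATAAA. Of 33469 promoters of this length, 7.67% held the STAT letters, 8.12% the interferon element, 1.08% the kappa-B letters, 30.5% the GC box and 12.9% the TATA box. The *C1r*, *Masp1*, *C3* and *Cfi* windows held none of the 5. The *Cd55* window held 3 GC boxes, all read on the opposite strand as CCGCCC, and the pair closest to the start share 1 base. The *Cfd* window held 1 GC box. A match is a match of letters only, and its lack says only that these letters are not in this window.

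C1r and C1s, the pair of proteases that C1q carries, both had their lowest signal at 1d and their highest at 56d. The *C1s* signal was 103 at 1d, 272 at 7d and 1576 at 56d. *C1s* was therefore 2.63-fold higher in TSPCs-7d vs. TSPCs-1d, 5.80-fold higher in TSPCs-56d vs. TSPCs-7d and 15.3-fold higher in TSPCs-56d vs. TSPCs-1d. Over both steps together only 3 of the 31042 probe sets had a higher ratio, since *C1s* stood at rank 4. The *C1r* signal was 391 at 1d, 654 at 7d and 2040.2 at 56d. *C1r*, whose product cuts C1s, was 1.67-fold higher in TSPCs-7d vs. TSPCs-1d, which is under the cutoff, 3.12-fold higher in TSPCs-56d vs. TSPCs-7d and 5.22-fold higher in TSPCs-56d vs. TSPCs-1d. In RefSeq's annotation the genes lie next to each other on chromosome 4, with 0 genes between them. *C1s* was past the cutoff at each step and *C1r* only at the later step and over both together.

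The substrate of C1s next in line is C2, which together with C4 forms the classical C3 convertase, and its neighbour factor B does the same work in the alternative pathway. *Cfb* and *C2* are adjacent on chromosome 20, with 0 genes between them, and the 4 probe sets given to both cannot be assigned to either here. Probe set 1383391_a_at had signals of 75.0 at 1d, 103 at 7d and 597 at 56d, with a ratio of 7.96 for TSPCs-56d vs. TSPCs-1d. Probe set 1383392_at, designed on the same sequence record, had signals of 79.4 at 1d, 87.1 at 7d and 342 at 56d, with a ratio of 4.30. These are not independent readings, as they share their source record. The other pair did not reach the cutoff in any comparison. Probe set 1393219_at gave 159 at 1d, 146 at 7d and 286 at 56d, and probe set 1389470_at gave 139 at 1d, 107 at 7d and 134 at 56d. The ratio for TSPCs-56d vs. TSPCs-1d thus lay between 0.97 and 7.96 over the 4 probe sets, and no value for *C2* alone is given.

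*Masp1* encodes a protease of the lectin pathway, and by alternative splicing the same gene also gives MASP-3 and a shorter protein without the protease domain, as known from human and mouse. Its 3 probe sets did not move alike. Probe set 1390585_at, the brightest, had signals of 204 at 1d, 110.3 at 7d and 1428 at 56d, so TSPCs-7d was the lowest of the 3 ages. It was 12.9-fold higher in TSPCs-56d vs. TSPCs-7d, rank 3 of all probe sets in that comparison, and 6.99-fold higher in TSPCs-56d vs. TSPCs-1d, while TSPCs-7d vs. TSPCs-1d gave a ratio of 0.54. Probe set 1389543_at repeated the order of ages, with 56.8 at 1d, 49.5 at 7d and 108 at 56d. Its ratio was 2.18 for TSPCs-56d vs. TSPCs-7d and 1.90 for TSPCs-56d vs. TSPCs-1d, just above and just below the cutoff. Probe set 1371116_at stayed within 1.32-fold, with signals of 112 at 1d, 119.6 at 7d and 148 at 56d. Which transcript of *Masp1* each probe set reads was not analysed here, so the large ratio is a value of 1 probe set and not of the gene as a whole.

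*C3*, the component at which all pathways meet, passed the cutoff at the later step and not at the earlier one. Its signal was 76.4 at 1d, 80.4 at 7d and 334 at 56d. The ratio was 1.05 for TSPCs-7d vs. TSPCs-1d, and *C3* was 4.15-fold higher in TSPCs-56d vs. TSPCs-7d and 4.37-fold higher in TSPCs-56d vs. TSPCs-1d. *Cfd*, which encodes factor D, the protease that cuts factor B and is also known as the adipocyte product adipsin, was dim on all 3 arrays. Here dim means under 48.9, the 25th percentile of all signals. The *Cfd* signal was 25.7 at 1d, 25.5 at 7d and 33.5 at 56d, and no fold is given between dim signals.

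**Figure D1:**
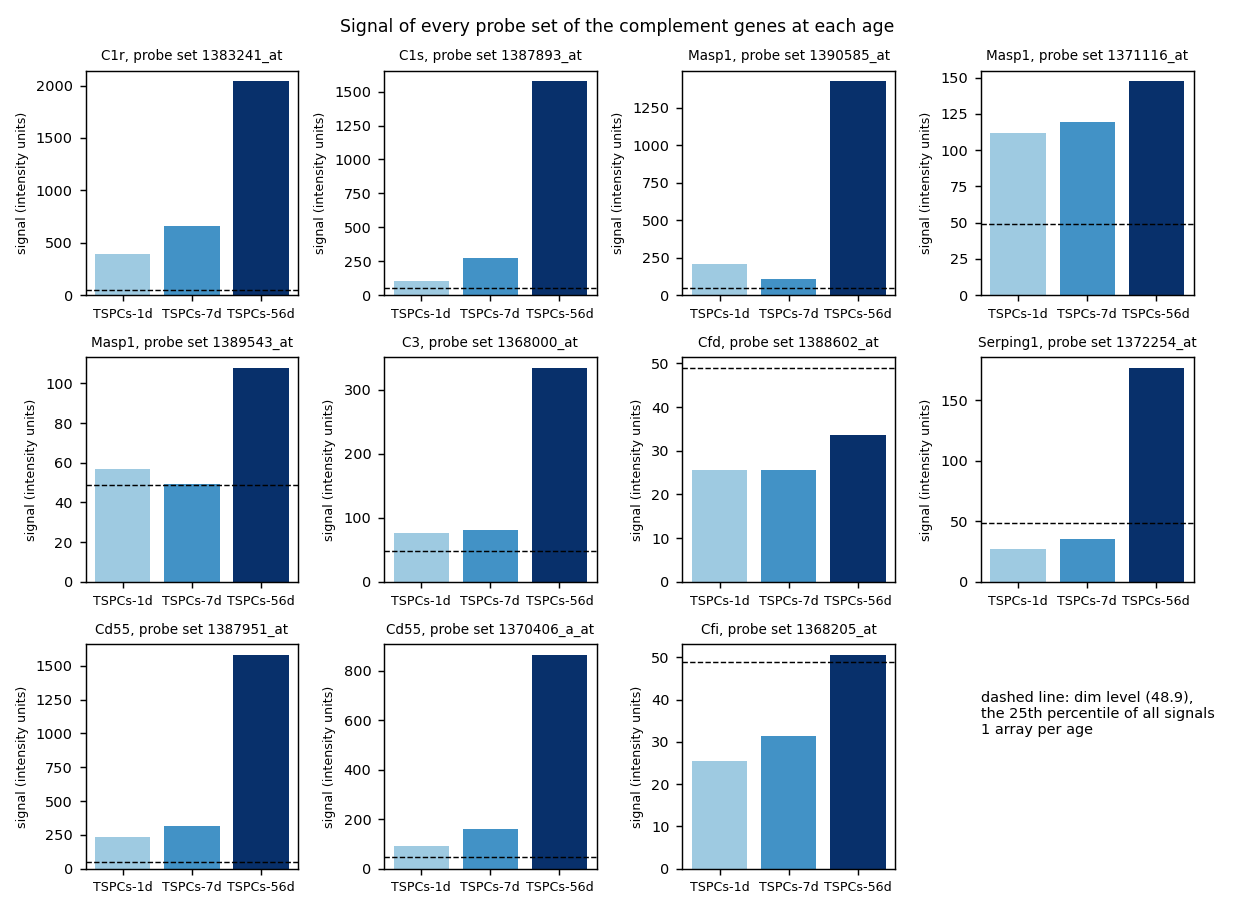
Signal in intensity units (vertical axis, linear, from 0) of each of the 11 probe sets of 8 complement genes at 1d, 7d and 56d, with 1 bar per array and a dashed line at the dim level of 48.9. The bar of TSPCs-56d is the highest in all 11 panels, by far for *C1s* and little for *Masp1* probe set 1371116_at, and all 3 bars of *Cfd* lie under the line.

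Among the regulators, *Serping1* encodes the C1 inhibitor, a serpin that removes C1r, C1s and the MASP proteases from their complexes. Its signal was 27.5 at 1d and 35.3 at 7d, both dim, and 177 at 56d. With the dim signals raised to 48.9, *Serping1* was at least 3.61-fold higher in TSPCs-56d vs. TSPCs-7d and likewise in TSPCs-56d vs. TSPCs-1d. The inhibitor and its target proteases *C1r* and *C1s* were thus all higher in TSPCs-56d than in TSPCs-7d.

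*Cd55* encodes decay-accelerating factor, a membrane protein that takes C3 convertases apart on the cell's own surface. It had 2 probe sets, and both passed the cutoff at the later step. Probe set 1387951_at had signals of 234 at 1d, 313 at 7d and 1579.9 at 56d, which is 5.05-fold higher in TSPCs-56d vs. TSPCs-7d and 6.75-fold higher in TSPCs-56d vs. TSPCs-1d. Probe set 1370406_a_at had signals of 90.9 at 1d, 159 at 7d and 863 at 56d, with a 5.43-fold and a 9.49-fold higher signal in the same comparisons. *Masp1* and *Cd55* were the genes with more than 1 probe set, and only for *Cd55* did every probe set pass the cutoff. *Cfi* encodes factor I, the protease that degrades C3b and C4b with the help of cofactors. Its signal was 25.6 at 1d and 31.3 at 7d, both dim, and 50.5 at 56d, just above the dim level, so with the dim signals raised to 48.9 the ratio of TSPCs-56d vs. TSPCs-1d was 1.03.

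Counted over the 11 probe sets, most values past the cutoff belonged to the later step of age. In TSPCs-56d vs. TSPCs-7d, 8 of 11 probe sets, from 6 of 8 genes, were higher and 0 were lower. Among all probe sets 1.31% were higher and 1.68% lower in that comparison. In TSPCs-56d vs. TSPCs-1d, 7 of 11 probe sets, from the same number of genes (6 of 8), were higher and 0 were lower, beside 1.52% higher and 1.8% lower of all probe sets. In TSPCs-7d vs. TSPCs-1d, 1 of 11, *C1s*, was higher and 0 were lower, beside 1.36% higher and 0.989% lower of all. All 11 probe sets had their highest signal in TSPCs-56d, as did 43.3% of all probe sets. These counts follow in part from the choice of the genes and nothing is read from their distance to the background. Over all probe sets, TSPCs-56d vs. TSPCs-1d gave 473 higher and 558 lower, and after division of each array by its median 381 higher and 692 lower.

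With the brightest probe set standing for each gene, the median log2 ratio of the 8 genes was 0.33 in TSPCs-7d vs. TSPCs-1d, 2.19 in TSPCs-56d vs. TSPCs-7d and 2.53 in TSPCs-56d vs. TSPCs-1d. These medians take the signals as deposited, dim ones of *Cfd*, *Cfi* and *Serping1* included, and with dim signals raised to 48.9 they were 0.036, 1.95 and 2.26. With log2 ratios of deposited signals averaged over the probe sets of each gene, the medians of the 8 genes were 0.33, 1.88 and 2.26. The medians of deposited signals over all named genes were 0.014, 0.046 and 0.058. The lowest and highest of the 8 log2 ratios were -0.89 for *Masp1* and 1.40 for *C1s* in TSPCs-7d vs. TSPCs-1d. The highest was 3.69 for *Masp1* in TSPCs-56d vs. TSPCs-7d and 3.93 for *C1s* in TSPCs-56d vs. TSPCs-1d. The comparisons share arrays, so their ratios are not independent of each other.

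**Figure D2:**
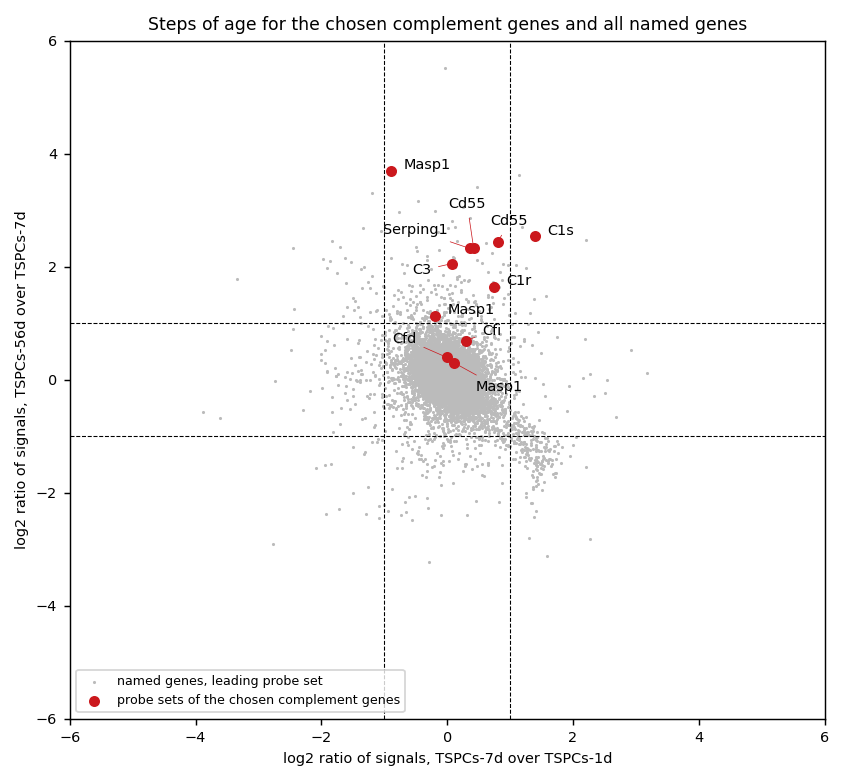
Log2 ratio of the signal in TSPCs-7d over that in TSPCs-1d (horizontal axis) and in TSPCs-56d over TSPCs-7d (vertical axis) for the 11 probe sets of the complement genes (red) and the brightest probe set of each of 14216 named genes (grey), with dashed lines at the 2-fold cutoff. Both axes use the TSPCs-7d array, so a high or low signal there moves a point on both. *C1s* alone of the red points lies past 2-fold on both axes, and the highest red point, left of 0, is *Masp1* at 3.69.

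Without replicate arrays, the nearest thing to a measure of error was the difference between probe sets of a gene. This could be read for 1714 genes with 2 well-measured probe sets, both over the median of the mean signals. The log2 ratios of both differed by a median of 0.14 in TSPCs-7d vs. TSPCs-1d, 0.14 in TSPCs-56d vs. TSPCs-7d and 0.17 in TSPCs-56d vs. TSPCs-1d. In 90% of these genes the difference was no more than 0.39, 0.44 and 0.53, in the same order. The difference of *Cd55* was 0.39, 0.11 and 0.49 and stayed within these limits. The 3 probe sets of *Masp1* spanned 0.99, 3.39 and 2.40 on the same scale, well outside them. This guide covers the probes and not the spread between cultures or animals.

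**Figure D3:**
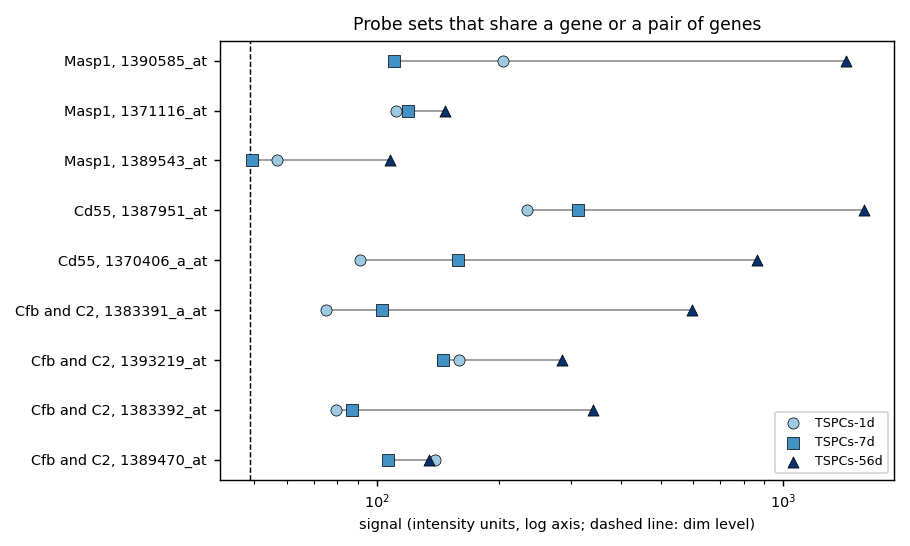
Signal in intensity units (horizontal log axis) at 1d (circles), 7d (squares) and 56d (triangles) for each probe set of *Masp1*, of *Cd55*, and of the adjacent genes *Cfb* and *C2* together, with a dashed line at the dim level. Both *Cd55* rows stretch far to the right in TSPCs-56d, 1 of 3 *Masp1* rows does so, and the *Cfb* and *C2* rows range from no net move to 597.

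The wider complement system was read from 59 gene symbols sorted by role, of which 42 had a probe set of their own and 11 were dim on all arrays. A receptor gene that was not measured is listed under both its old and its new symbol. Leaving out the genes described above, 34 of 50 symbols were measured. Of these 34, 2 were higher and 1 lower in TSPCs-7d vs. TSPCs-1d, 0 were higher or lower in TSPCs-56d vs. TSPCs-7d, and 1 was higher and 2 lower in TSPCs-56d vs. TSPCs-1d. Their median log2 ratios were -0.031, 0.11 and 0.15 in that order. Among all named genes, 1.87%, 1.72% and 2.0% were higher and 1.08%, 2.1% and 1.77% were lower in the same comparisons. *Colec12* was the 1 gene of the 34 that was more than 2-fold higher in TSPCs-56d vs. TSPCs-1d.

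In the classical pathway, the genes for the 3 chains of C1q, which carries C1r and C1s, had low signals. *C1qa* gave 70.9 at 1d, 58.0 at 7d and 55.5 at 56d. *C1qb* was dim on all arrays, with 32.6 at 1d, 25.1 at 7d and 15.6 at 56d, and counts among the lower genes although no fold is given between dim signals. *C1qc* gave 49.7 at 1d, 46.3 at 7d and 52.2 at 56d. None of the 3 chains was more than 2-fold higher in any comparison. The probe set shared by *C4b* and *C4a*, for the other substrate of C1s, was dim on all arrays with a signal between 39.3 and 40.2.

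In the lectin pathway, *Colec12*, which encodes a scavenger receptor of the collectin family, was 2.18-fold higher in TSPCs-7d vs. TSPCs-1d and 2.71-fold higher in TSPCs-56d vs. TSPCs-1d, with signals of 132 at 1d, 287 at 7d and 357 at 56d. The brightest probe set of *Masp2*, the protease that cuts C4 and C2 in this pathway, gave 73.1 at 1d, 85.1 at 7d and 50.2 at 56d. In the terminal pathway 6 of 7 genes were measured and 0 passed the cutoff in any comparison. *C8g*, which encodes a chain of the pore, was the one above the median of mean signal, with 115 at 1d, 153 at 7d and 149.8 at 56d. Of the receptors 7 of 9 listed symbols were measured and 0 passed the cutoff. *C3ar1*, the receptor for the C3a fragment, was dim on all arrays, and *C5ar1*, the receptor for C5a, gave 104 at 1d, 86.9 at 7d and 125 at 56d.

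Regulators other than *Serping1*, *Cd55* and *Cfi* moved in both directions or stayed under the cutoff. *Clu*, which encodes clusterin, a secreted chaperone that binds the terminal complex, was lower than in TSPCs-1d at both later ages, at 812 at 1d, 344 at 7d and 275 at 56d, or a ratio of 0.42 for TSPCs-7d vs. TSPCs-1d and 0.34 for TSPCs-56d vs. TSPCs-1d. Its second probe set was weak, between 46.2 and 67.0, and did not pass the cutoff. The brightest probe set of *Thbd*, which encodes thrombomodulin, was 2.14-fold higher in TSPCs-7d vs. TSPCs-1d, with signals of 53.4 at 1d, 114 at 7d and 95.4 at 56d. Probe set 1368901_at of *Thbd* was at least 1.49-fold higher in that comparison, under the cutoff, and probe set 1368900_at was dim on all arrays. *Cr1l*, the rodent membrane regulator Crry, which also acts on C3 convertases, gave 820.1 at 1d, 1143 at 7d and 1289.9 at 56d and did not reach the cutoff. *C1qbp*, for a mitochondrial protein that binds C1q, gave 3264 at 1d, 3555 at 7d and 3236 at 56d. *Cd46*, another membrane cofactor, was dim on all arrays. *Cd59* and *Cr1* were not analysed here.

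**Figure D4:**
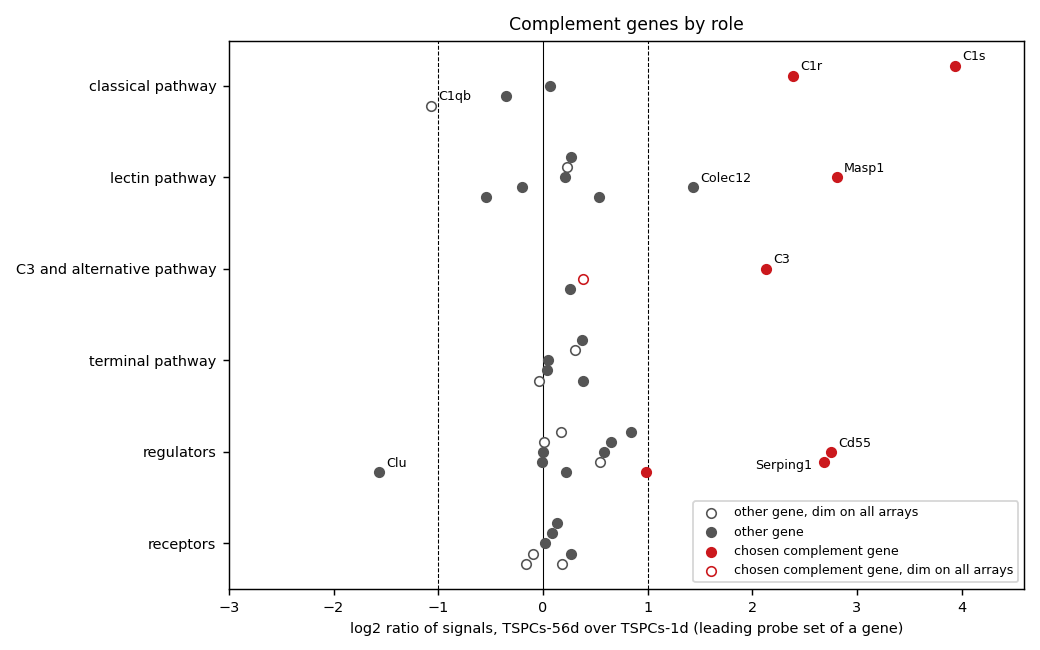
Log2 ratio of signals in TSPCs-56d over TSPCs-1d (horizontal axis) for the brightest probe set of each measured complement gene, in rows by role, with open circles for genes dim on all arrays and dashed lines at the 2-fold cutoff. The 6 red points right of the line are *C1r*, *C1s*, *Masp1*, *C3*, *Serping1* and *Cd55*, the only grey point there is *Colec12*, and *Clu* and the dim *C1qb* lie left of the other line.

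Gene lists close to complement were set beside these genes. Of 15 other secreted serine proteases, 0 passed the cutoff in TSPCs-56d vs. TSPCs-1d, and 1 was higher and 1 lower in TSPCs-56d vs. TSPCs-7d. The higher one, *Prss35*, was 2.60-fold higher, with signals of 2554 at 1d, 1897 at 7d and 4933 at 56d. The lower one, *F2*, was dim on all arrays, so no fold is given. Of 12 other serpins, 3 were higher and 0 lower in TSPCs-56d vs. TSPCs-7d, and 2 were higher and 1 lower in TSPCs-56d vs. TSPCs-1d. Among all named genes, 1.72% and 2.0% were higher and 2.1% and 1.77% lower in these comparisons. *Serpinb2*, among the higher ones in both, was dim on all arrays, so no fold is given. *Serpinb9*, higher in TSPCs-56d vs. TSPCs-7d alone, gave 2473 at 1d, 1078 at 7d and 3828 at 56d. *Serpinf1*, which encodes pigment epithelium-derived factor, gave 2638 at 1d, 3826 at 7d and 7964 at 56d, and *Serpini1*, for neuroserpin, was the lower one, with 128 at 1d, 82.2 at 7d and 45.8 at 56d.

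Complement genes of stromal cells are known to be induced by interferon and by inflammatory cytokines, so genes of these responses were read on the same arrays. Of 21 interferon response genes, 0 passed the cutoff in TSPCs-7d vs. TSPCs-1d, 2 were higher in TSPCs-56d vs. TSPCs-7d and 2 in TSPCs-56d vs. TSPCs-1d, with 0 lower. *Psmb8*, an immunoproteasome subunit, was higher in both of these, with 67.8 at 1d, 80.1 at 7d and 176 at 56d. *Gbp2* was higher only in TSPCs-56d vs. TSPCs-7d, with 69.9 at 1d, 52.2 at 7d and 132 at 56d. *Ifit2* was higher only in TSPCs-56d vs. TSPCs-1d, with 483 at 1d, 785 at 7d and 1220.1 at 56d. Of 14 acute phase and NF-kB response genes, 3 were higher in TSPCs-7d vs. TSPCs-1d, 0 in TSPCs-56d vs. TSPCs-7d and 4 in TSPCs-56d vs. TSPCs-1d, with 0 lower. *Il6* gave 301 at 1d, 1011 at 7d and 1698 at 56d, and the chemokine gene *Ccl2* gave 4509 at 1d, 6045 at 7d and 11379 at 56d. *Lcn2* gave 29.7 at 1d, which is dim, 190 at 7d and 119.8 at 56d, so it was highest in TSPCs-7d. *Saa3* gave 41.0 at 1d, also dim, 107 at 7d and 110 at 56d. Among all named genes, 1.87%, 1.72% and 2.0% were higher in TSPCs-7d vs. TSPCs-1d, TSPCs-56d vs. TSPCs-7d and TSPCs-56d vs. TSPCs-1d. The median log2 ratio in TSPCs-56d vs. TSPCs-1d was 0.28 for the interferon response list. It was 0.70 for the acute phase and NF-kB list and 0.058 for all named genes. The part of these responses in the complement signals was not tested.

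Markers of the labelled cell type were present at each age. The tendon and fibroblast list had 13 genes measured and 0 dim on all arrays, with a summed signal of 88740.2 at 1d, 90946.9 at 7d and 97284.2 at 56d. *Scx*, the transcription factor that marks tendon cells, gave 2255 at 1d, 2578 at 7d and 2569 at 56d. *Tnmd*, a membrane protein of mature tendon cells, gave 543 at 1d, 351 at 7d and 158 at 56d, against the direction of the complement genes. *Thbs4*, a tendon matrix gene, gave 76.5 at 1d, 339.6 at 7d and 348 at 56d.

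Macrophages, adipocytes, endothelium and hepatocytes also make complement, so their markers were read beside these results. Of 15 macrophage and leukocyte genes, 6 were dim on all arrays and 0 passed the cutoff in TSPCs-56d vs. TSPCs-1d, and the summed signal was 1331 at 1d, 1272 at 7d and 1510.4 at 56d. *Adgre1*, the macrophage gene F4/80, was dim on all arrays and was the 1 gene of the list with a ratio past the cutoff at either step. *Ptprc*, the leukocyte antigen CD45, was dim, with signals between 20.8 and 30.6, and *Cd68* gave 122 at 1d, 109 at 7d and 143 at 56d. Of 11 adipocyte genes, 2 were dim on all arrays, and 0 were higher and 1 was lower in TSPCs-56d vs. TSPCs-1d, with a summed signal of 1509 at 1d, 1040.0 at 7d and 1847 at 56d. *Fabp4*, the lower one, gave 70.6 at 1d and was dim after that, with 27.6 at 7d and 17.0 at 56d, and *Pparg*, the main adipocyte transcription factor, gave 119.5 at 1d, 117 at 7d and 60.3 at 56d. *Adipoq* gave 52.4 at 1d, 40.2 at 7d and 59.4 at 56d, while *Lpl*, which was lowest in TSPCs-7d as the brightest *Masp1* probe set was, gave 543 at 1d, 153 at 7d and 834 at 56d. Of 11 endothelial genes, 5 were dim on all arrays and 0 passed the cutoff, with a sum of 1231 at 1d, 1182 at 7d and 1426 at 56d, and *Pecam1* was dim throughout. Of 9 hepatocyte genes, 4 were dim on all arrays and 0 passed the cutoff, with a sum of 487 at 1d, 467 at 7d and 557 at 56d, and *Alb* gave 45.3 at 1d, 50.6 at 7d and 52.8 at 56d. No marker was listed at 0, as the lowest signal on every array was 1. Of 6 cartilage genes, 2 were lower in TSPCs-56d vs. TSPCs-1d, with *Acan* at 8588 at 1d, 8224 at 7d and 2874 at 56d, and of 8 muscle genes 1 was higher, *Acta1*, at 1772 at 1d, 855 at 7d and 5327 at 56d. Among all named genes, 1.87%, 1.72% and 2.0% were higher in TSPCs-7d vs. TSPCs-1d, TSPCs-56d vs. TSPCs-7d and TSPCs-56d vs. TSPCs-1d. In the same order, 1.08%, 2.1% and 1.77% were lower. At such shares a short list can hold 0 genes past the cutoff, so these counts are no result about a cell type. The part of cells other than TSPCs in the complement signals was not tested.

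**Figure D5:**
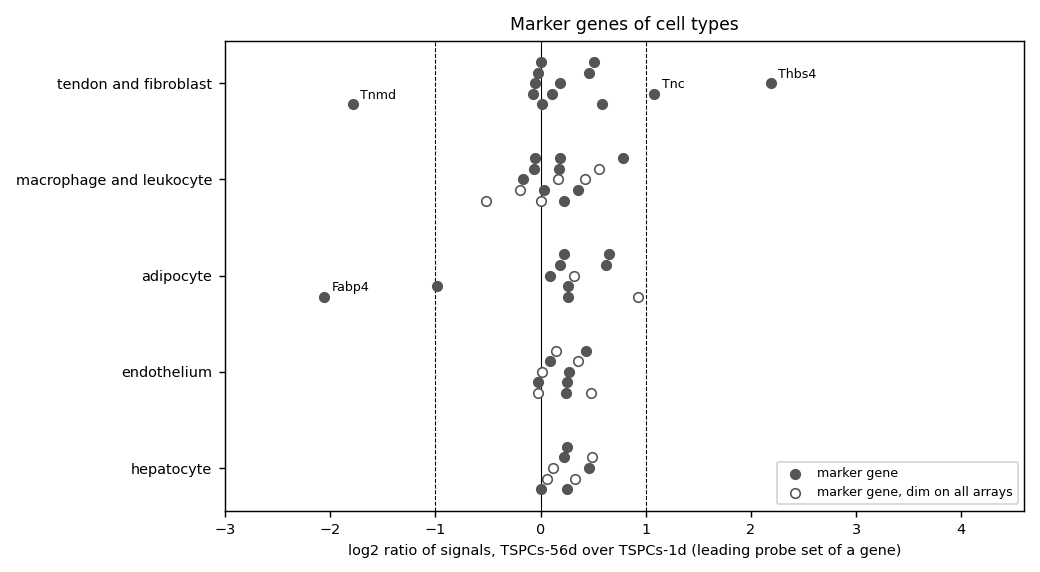
Log2 ratio of signals in TSPCs-56d over TSPCs-1d (horizontal axis) for the brightest probe set of each marker gene of 5 cell types, in rows, with open circles for genes dim on all arrays and dashed lines at the 2-fold cutoff. Points past the lines appear only in the tendon and fibroblast row (*Tnmd*, *Tnc* and *Thbs4*) and the adipocyte row (*Fabp4*), and the macrophage, endothelium and hepatocyte rows lie between the lines.

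For each of the 6 genes whose brightest probe set passed the cutoff, the genes of most similar pattern were found by the distance between their pairs of log2 ratios (TSPCs-7d over TSPCs-1d and TSPCs-56d over TSPCs-7d), among 9382 genes above the median of mean signal. With 3 arrays, such a pattern has only 2 free values, so genes can lie close by without sharing anything else. The filter takes the mean over the 3 arrays, so a gene can pass it through its 56d signal alone. Nothing is therefore read from a high 56d signal that these genes share. Nearest to *C3* was *Rarres2*, which encodes chemerin, at a distance of 0.076, with signals of 133 at 1d, 144 at 7d and 574 at 56d. Nearest to *C1r* were *Prelp*, a matrix proteoglycan gene, at 0.069 and *Cotl1*, for an actin-binding protein, at 0.076. *Prelp* gave 60.0 at 1d, 102 at 7d and 333 at 56d. Nearest to *C1s* was *Hsd11b1*, for the enzyme that activates cortisone in tissues, at 0.27, with 304 at 1d, 694 at 7d and 4538 at 56d. Nearest to *Serping1* was *Cd55* itself, at 0.061, although the *Serping1* ratios rest on dim signals at the earlier ages. *Arg1*, for arginase, and the chemokine gene *Ccl7* lay near both, at 0.21 and 0.28 from *Cd55*, and *Ccl7* gave 1058 at 1d, 1182 at 7d and 6449 at 56d. *Masp1* had the most distant nearest gene of the 6, *Apbb1ip* at 0.51 and the cytokine gene *Il33* at 0.68. The *Apbb1ip* signal at 7d was dim, at 37.0, so its distance rests on a dim signal. *Il33* gave 128 at 1d, 92.0 at 7d and 819 at 56d, again lowest in TSPCs-7d.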

How the data were processed

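Total RNA of TSPCs at passage 2 was hybridized to Affymetrix rat expression arrays, 1 per age. The values deposited by the authors are intensity signals on a linear scale for 31042 probe sets. The methods name MAS5 and RMA for normalization, while the submitters' processing notes give only MAS5. The methods and the labels also give different amounts of RNA and labelling kits. The median signal was 107 at 1d, 108 at 7d and 114 at 56d, and the signals were used without further scaling. The number of arrays limits the precision.

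Groups were taken from the sample labels. The genes, the 17 gene lists (6 of complement genes) and the rule for named genes were chosen with earlier results of these data known. Named genes are the 9 chosen genes, other complement genes past 2-fold or above the median of mean signal (111), up to 3 genes per list and direction, genes that check a cell type, and the 3 nearest genes by pattern. In the acute phase and NF-kB list, all 4 genes past the cutoff are named. Some checks of a cell type or role were named after their values were seen.

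The platform's table gives a single gene to 20826 probe sets, several to 436 and none to 9780, and of the first 20758 have a gene ID in RefSeq GRCr8. Where a gene had several probe sets, the brightest on average stood for it. A ratio of signals over 2 counted as higher and under 0.5 as lower. A signal under the 25th percentile was dim, and folds against it are given as "at least" with it raised to 48.9. No test was made. Alternatives were scaling by the median, quantile normalization, loess centring (span 0.2), floors at the 25th percentile or the median (110.1), a pseudocount of 32, cutoffs of 1.5 and 3, and averaging a gene over its probe sets. Counting past 2-fold after scaling by the median was tested on simulated arrays with known folds and no noise. Loess centring was tested there only for removing a uniform shift between arrays, in a comparison without such folds. Software versions were Python 3.11.15, numpy 2.4.6, pandas 2.3.3, statsmodels 0.14.6 and matplotlib 3.10.9.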

Additional observations from a re-analysis of the deposited data

How the results depend on the processing

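No paired analysis was possible because there was 1 array per age and no replicate to pair or to leave out. For the counts and medians reported, 90 alternative values were tried. Of these, 80 stayed within 1.5 times the count or within the spread between probe sets of a gene, and 10 moved. The 80 include counts of 0 that stayed at 0, and a count cannot change sign, so reversals are not tallied. In TSPCs-7d vs. TSPCs-1d, 3 of 11 probe sets were higher and 1 was lower at a cutoff of 1.5, and 0 were higher at a cutoff of 3. The median log2 ratio of the 8 genes in that comparison was 0.036 once signals under the 25th percentile were raised to it, and 0.00 with a floor at the median of all signals. In TSPCs-56d vs. TSPCs-7d it was 1.62 with the floor at the median and 1.67 with the pseudocount of 32, and in TSPCs-56d vs. TSPCs-1d it was 1.99 and 2.05 under the same settings. With the floor at the median, 1 gene of the wider complement list was lower in TSPCs-56d vs. TSPCs-1d instead of 2. Over 3 scalings, 2 floors and the pseudocount, 45 of 48 ratios of probe sets higher in TSPCs-56d vs. TSPCs-7d stayed past 2-fold, as did 41 of 42 in TSPCs-56d vs. TSPCs-1d. The exceptions were *Masp1* probe set 1389543_at (log2 0.00 with the floor at the median and 0.78 with the pseudocount, for TSPCs-56d vs. TSPCs-7d) and *Serping1* with the floor at the median (0.68 in both comparisons). With the mean over its 3 probe sets, *Masp1* had log2 ratios of -0.33, 1.71 and 1.38 in TSPCs-7d vs. TSPCs-1d, TSPCs-56d vs. TSPCs-7d and TSPCs-56d vs. TSPCs-1d. Floors and pseudocounts shrink ratios of weak signals by construction, and *Cfd*, *Cfi* and, at the earlier ages, *Serping1* were too dim for a fold.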
